A study of Mus musculus with 16 samples.

Results

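The cells described here are the neutrophils of the CD45+ libraries, chosen by their own RNA counts. A cell barcode was taken when it held at least 10 S100a8 and at least 10 S100a9 UMIs (unique molecular identifiers, which count RNA molecules), at most 1 UMI over C1qa, C1qb and C1qc, 0 over Cd3d, Cd3e and Cd3g, and at most 1 of Cd79a. Of 17668 CD45+ cells, 114 met this rule: 76 of 9069 tumor cells and 38 of 8599 spleen cells. The study sequenced RNA of single cells from C57BL/6 mice carrying MC38 tumors, a mouse colon carcinoma line, and addressed how loss of Aire, a regulator of self-antigen display in the thymus, bears on the response to PD1 blockade. Mice were *Aire*+/+ or *Aire*-/-, aged 8 weeks, given anti-PD1 at 5 mg/kg or an isotype antibody, and killed on day 19. Each of the 4 conditions has 1 CD45+ library per tissue, a tumor library from the pooled tumors of 4 to 6 animals and a spleen library from pooled spleens, so there is no replicate. A p-value below therefore measures how the difference between tumor and spleen varied between conditions, and conditions are compared as values alone. Where 4 values are listed, they follow the order *Aire*+/+ isotype, *Aire*+/+ anti-PD1, *Aire*-/- isotype, *Aire*-/- anti-PD1. Levels are in CPM (counts-per-million): the UMIs of a gene relative to all UMIs of the chosen cells, called members below, of a library.

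Neutrophils are short-lived phagocytes that mature in the bone marrow and circulate between marrow, blood, spleen and inflamed tissue. Their granule proteins are transcribed in order during maturation, first those of the primary granules, then those of the secondary and tertiary granules, after which the cells express receptors for colony-stimulating factor and chemokines. In tumors they are known as a source of chemokines and interleukin 1, and as cells that can take on states not seen in blood.

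The label was checked against 3 neutrophil genes that the rule did not use. At least 1 UMI of Csf3r (the receptor for granulocyte colony-stimulating factor), Cxcr2 (a chemokine receptor) or Retnlg (a resistin-like protein) was found in 72 of 76 tumor members and 37 of 38 spleen members. In tumor, Csf3r stood at 391, 737, 649 and 928 CPM, and in spleen at 1998, 1459, 383 and 354 CPM. The other cells of these libraries held on average 24.6 CPM Csf3r in tumor and 9.71 in spleen. Retnlg was at 1581, 2101, 348 and 2761 CPM in tumor and at 6772, 3598, 575 and 1415 CPM in spleen, against 1.24 and 1.46 CPM in other cells. The members thus carried neutrophil genes in both tissues, far above the cells around them. The genes of the rule are given as description: S100a8 ran from 14515 to 35219.6 CPM in tumor and from 90094 to 157351 CPM in spleen.

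Markers of lymphocytes that the rule did not limit were close to absent from the members. Of the T cell genes (5 of 7 listed have a count), Cd3d, Cd3e and Cd3g are 0 by the rule and the rest gave 0 UMIs too; of the B cell genes (4 of 6), Cd79a is limited by the rule and the rest gave 1 UMI, of Cd79b. No gene of the lists that follow was used by the rule except C1qa, C1qb and C1qc among the macrophage genes. NK cell genes gave 1 UMI of Gzma, with Ncr1 and Prf1 at 0. Basophil or mast cell genes and erythroid genes were at 0, platelet genes gave 1 UMI of Pf4, and of the eosinophil genes Prg2, Epx and Il5ra were at 0 while Siglecf gave 4 UMIs in tumor and 2 in spleen. Tumor or stromal cell genes gave 3 UMIs in all, with Epcam, Krt8, Col3a1 and Sparc at 0. Macrophage genes summed to 1074, 204, 320.1 and 136 CPM in tumor and to 705, 32.4, 479 and 0 CPM in spleen, with Apoe the most abundant and Mrc1 at 0. Monocyte genes were the exception among these lists. They summed to 3448, 4170.4, 4024 and 1313 CPM in tumor and to 705, 940.0, 6228 and 1231 CPM in spleen, led by Ctss or Ly6c2. Of the 76 tumor members, 28 held more than 2 UMIs over Csf1r, Ccr2 and Ly6c2 and 29 held 0, and apart from the stricter lineage rule used below their part in the result was not tested. Some of the 28 passed 2 UMIs on Ly6c2 alone, with Csf1r and Ccr2 at 0. In spleen, the granule-rich members described below held 130 of the 151 Ly6c2 UMIs and 0 of the 14 of each of Csf1r and Ccr2.

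Members near the limits of the rule were few in both tissues. Just inside it, with 10 to 19 UMIs of the lesser S100a gene, lay 10 tumor and 5 spleen members; just outside, with 5 to 9 UMIs, lay 8 tumor cells and 0 spleen cells. At least 2 UMIs over Csf3r, Cxcr2 and Retnlg were present in 6 of the 10 inner tumor cells, 3 of the 8 outer ones and 60 of the 66 with 20 or more. Another 27 tumor and 2 spleen barcodes failed the rule only on C1q, Cd3 or Cd79a UMIs. No member barcode was a member in another library (0 found), 4 matched another cell elsewhere, and pairs of CD45+ libraries shared 3 to 16 barcodes. In the sorted CD8+ libraries 0 of 19785 cells met the rule, which allows a share of up to 0.0152%. Aire itself gave 0 UMIs in the members and from 0 to 5 in the other cells of each library, so these counts do not check the genotype.

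Neutrophils were a small share of CD45+ cells in every library. In tumor, the share was 0.853% (95% exact Clopper-Pearson interval 0.553 to 1.26), 1.13% (0.734 to 1.67), 0.916% (0.534 to 1.46) and 0.434% (0.199 to 0.822), on 25, 25, 17 and 9 members. In spleen it was 1.05% (0.659 to 1.59), 0.335% (0.135 to 0.69), 0.0989% (0.012 to 0.357) and 0.293% (0.118 to 0.602), on 22, 7, 2 and 7 members. The *Aire*-/- anti-PD1 tumor had the lowest share of the 4 tumors, though not with 50 UMIs of each S100a gene (0.386% against 0.377% in *Aire*-/- isotype), and *Aire*+/+ isotype mice the highest of the 4 spleens. Intervals and floors here and below cover counting error only. Libraries held 10926701 to 38928101 UMIs, and in tumor the median UMIs per member, 5616, 3985, 4416 and 4015, were below those of all cells, 11892, 11857, 12251.5 and 9888. In spleen, member medians were 2429.5, 2181, 10436 and 4861 against 4549, 4413.5, 4732 and 4502 for all cells, lower in both *Aire*+/+ libraries and higher in both *Aire*-/- libraries.

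Tumor and spleen neutrophils differed in a pair of main ways. Chemokine and cytokine genes, interferon-response genes and genes known from tumor neutrophils were mostly higher in tumor, many from 0 or a few UMIs in spleen to some of the most abundant RNAs in tumor. Most secondary and tertiary granule genes were lower in tumor, led by Camp, Ngp and Ltf, which were high in spleen and near 0 in tumor. In spleen, 8 of 38 members, called granule-rich below, held all UMIs of Camp, Ngp and Ltf. Without these cells 2 of 8 granule genes tested were lower in tumor and 1 was higher. The receptors Csf3r and Cxcr2 and the maturity gene Retnlg did not pass the test over all members, but Csf3r and Retnlg were lower in tumor without granule-rich cells. Across 1587 genes tested by edgeR's quasi-likelihood test with condition as a block and Benjamini-Hochberg adjustment, 420 (26.5%) were called at the 0.05 level, 324 (20.4%) higher and 96 (6.05%) lower in tumor, with a median log2 difference of 0.16. The *Aire*-/- isotype spleen, with 2 members, was left out of the fit, which kept 2 residual degrees of freedom. The *Aire*-/- isotype tumor was thus without its pair and gave no tissue difference of its own. Leaving out the pair of *Aire*+/+ anti-PD1 libraries brought the calls to 154, all of them among the 420, and leaving out the *Aire*+/+ isotype pair brought the genes lower in tumor to 57. The study's methods describe release of tumor cells with enzymes and of spleen cells by mechanical means, so tissue and preparation cannot be told apart.

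Chemokine and cytokine genes were higher in tumor throughout the tested list: all 13 tested of 14 listed were called, with a median log2 difference of 6.89, or 5.11 with genes at 0 in spleen set to their bound. Many of these genes had 0 or few spleen UMIs and passed the filter on low counts through their tumor counts alone. The number called of those tested thus follows in part from the filter. The same holds for the lists below whose genes had few spleen UMIs. Cxcl2, a chemokine that draws in neutrophils through Cxcr2, was at 34532, 32266, 22024 and 32617 CPM in tumor and at 44.1, 0, 0 and 0 CPM in spleen. It was the most abundant gene of the list in each tumor library, and 75 of 76 tumor members against 2 of 38 spleen members held a UMI of it. Over the fitted libraries the ratio was 1689 (578 to 8189.7), and the log2 difference was 10.89 ± 0.92 (SE), adjusted p = 7.9e-29, higher in tumor in 3 of 3 conditions with both tissues fitted. Ccl4 and Ccl3, chemokines for monocytes and T cells, had 0 UMIs in all spleen members. In tumor Ccl4 was at 9369, 14894, 4793 and 3349.9 CPM, at least 505-fold higher against a floor of 3 UMIs over the fitted spleen libraries (adjusted p = 1.2e-24). Ccl3 was at 4527, 7322, 1893 and 2852 CPM (at least 247-fold), and Cxcl10, an interferon-induced ligand of Cxcr3, at 3382, 5699, 8085 and 8669 CPM (at least 303-fold). For each of these genes every tumor library lay above every spleen library. Other cells of the same suspensions also held some of this RNA: 18.6% of 393 T cells in the *Aire*+/+ isotype tumor held a Cxcl2 UMI, at 818 CPM and a median of 9277 UMIs per cell, against 100% of the 25 members there. For Cxcl10 these shares were 21.1% and 44%, and for Ccl4, which T cells also express, 47.8% and 72%. In the *Aire*+/+ isotype spleen 0.36% of 1390 B cells, with a median of 4245 UMIs, held an S100a8 UMI and 0.0719% an Ngp UMI.

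Of the interleukin 1 genes, Il1b was already present in spleen neutrophils, and both Il1b and Il1a were higher in tumor. Il1b was at 16500.5, 18986, 20085 and 21910.4 CPM in tumor and at 3437, 2366, 383 and 539 CPM in spleen, a log2 difference of 3.47 ± 0.62 (adjusted p = 4.9e-07). Every tumor member held Il1b (76 of 76), as did each of the 30 spleen members outside the granule-rich group described below, and 0 of the 8 inside it. Il1a, its partner cytokine, was even across the tumors at 989, 909, 924 and 928 CPM and at 0 in spleen (at least 51.8-fold higher). The receptor antagonist Il1rn rose by 4.15 on the log2 scale, the decoy receptor Il1r2 by 4.02, oncostatin M (Osm) by 5.11, Tnf by 4.03 and Csf1 by 4.99. Both the cytokine and its natural inhibitors were thus higher in tumor. Cxcl1 (at least 9.1-fold higher over the fitted libraries) and Vegfa (log2 2.23) lost their calls without the *Aire*+/+ anti-PD1 pair, where Vegfa had 1.59 (adjusted p = 0.246 and 0.496), and with 50 UMIs of each S100a gene, which takes the *Aire*+/+ anti-PD1 spleen below 5 members, Il1b was not called (log2 3.36, adjusted p = 0.0776), though it was with that library kept (3.32, adjusted p = 5.8e-05).

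**Figure D1:**
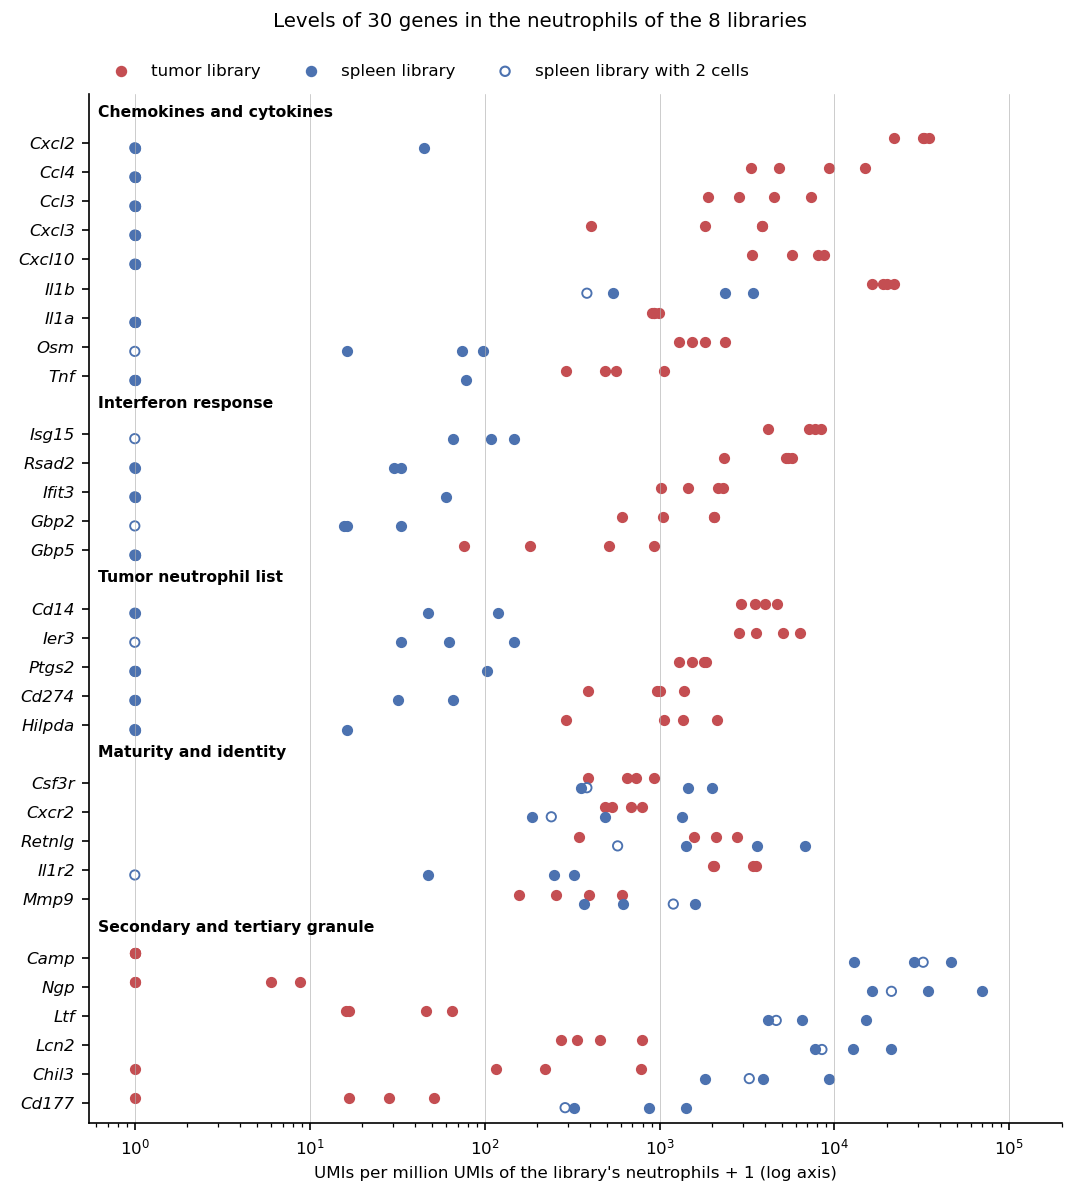
CPM (plus 1, log axis) of 30 genes in each tumor library (red) and spleen library (blue), hollow for the spleen library with 2 members. Chemokine, cytokine and interferon genes stand higher in the 4 tumors than in spleen. Most are at or near 0 in spleen, but Il1b is present there. Camp, Ngp and Ltf are high in spleen and at or near 0 in tumor.

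Genes known from neutrophils of mouse tumors moved the same way. Of the 20 listed, 14 passed the filter on low counts and all 14 were higher in tumor, with a median log2 difference of 5.06. Many of the 14 passed it through their tumor counts alone, so this count is no test of the list. Cd14, a co-receptor for bacterial lipopolysaccharide, was at 3985, 4696, 2908 and 3508 CPM in tumor and at 118, 0, 0 and 46.2 CPM in spleen (log2 6.05 ± 0.72, adjusted p = 1e-14). Cd274, which encodes the PD1 ligand PD-L1, was at 386, 1003, 960.4 and 1381 CPM in tumor against 0, 64.8, 0 and 30.8 CPM (log2 4.99 ± 0.79, adjusted p = 9e-09). Ligand RNA of the blocked receptor was detected in 62 of 76 tumor members and 3 of 38 spleen members. Ier3 (5.73), Ptgs2, the prostaglandin synthase (5.49), Thbs1 (5.42), Hcar2 (5.39) and Tgm2 (5.13) had log2 differences of like size. Hilpda, a lipid-droplet protein induced by low oxygen, had 677 UMIs in tumor and 1 in spleen, a ratio of 231 (41.3 to 9138). Spp1 (log2 4.26) lost its call without the *Aire*+/+ isotype pair (1.68, adjusted p = 0.371), and Cstb, Ninj1 and Plin2 lost theirs without the *Aire*+/+ anti-PD1 pair. Siglecf, Nos2, Gpr84, Dcstamp and Tnfrsf10b of this list had too few counts to be tested, and Dcstamp and Tnfrsf10b gave 0 UMIs.

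Interferon-response genes were higher in tumor in 14 of 19 tested and lower in 1, with a median log2 difference of 4.72 (4.07 with bounds). Isg15, a ubiquitin-like protein, was at 4175, 7165, 8332 and 7764 CPM in tumor and at 147, 64.8, 0 and 108 CPM in spleen, a log2 difference of 5.73 ± 0.69 (adjusted p = 1.2e-14). Rsad2 (viperin) was at 2344, 5746, 5396 and 5274 CPM against 29.4, 32.4, 0 and 0 CPM, and 69 of 76 tumor members held it against 3 of 38 in spleen. Both types of interferon have targets among these genes. Ifit1, Ifit2 and Ifit3, which respond to type I interferon, rose by 6.09, 5.56 and 5.96 on the log2 scale, and the interferon-gamma-induced GTPases Gbp2 and Ifi47 rose by 5.75 and 4.72. Gbp5 was at 0 in spleen (at least 15.4-fold higher). Ifitm1 (0.39), Ifitm2 (0.42) and Cxcl9 (3.86, 40 UMIs in tumor and 0 in spleen) did not pass the test. Ifitm6 was the one gene lower in tumor, at 412, 219, 539.6 and 158 CPM against 969.5, 1361, 1677 and 1739 CPM (−2.36, adjusted p = 6e-04), and its direction turned without the granule-rich spleen members (0.64 on the same libraries, adjusted p = 0.453). Calls of Ifitm3 (2.14), Oasl2 (1.91) and Ifitm6 ended without the *Aire*+/+ anti-PD1 pair (log2 1.71, 1.81 and −2.41, adjusted p = 0.291, 0.309 and 0.144). Reads of Ifit3 and of its near copy Ifit3b (at least 26.5-fold higher) cannot be told apart with certainty.

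Receptors for microbial products and antibodies were higher in tumor in 10 of 14 tested, with a median log2 difference of 3.33. Cd14 belongs here too; Tlr2 rose by 5.0, the C-type lectins Clec4n, Clec4e, Clec4d and Clec7a by 3.81, 3.50, 3.10 and 2.87, the amplifying receptor Trem1 by 3.49, and the inflammasome sensor Nlrp3 by 3.41 on the log2 scale. Among Fc receptors, the inhibitory Fcgr2b (3.98) and the activating Fcgr4 (3.25) were called. Fcgr3 (1.15) and Fcer1g (0.57), the chain of the activating receptors, were not. Fcer1g was abundant in both tissues, at 3648, 3653, 4289.6 and 2988 CPM in tumor and 3188, 2334, 3066 and 1523 CPM in spleen. The calls of Clec4d, Clec7a and Fcgr4 ended without the *Aire*+/+ anti-PD1 pair (log2 2.88, 2.72 and 3.12, adjusted p = 0.0623, 0.0943 and 0.0528). That of Fcgr2b ended without the *Aire*+/+ isotype pair (2.91, adjusted p = 0.0557).

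Migration and adhesion receptors were mixed, with 5 higher and 1 lower of 15 tested, not far from the 20.4% and 6.05% of all genes. Ccrl2, a receptor that binds chemerin without signaling, stood apart: 5094, 9595, 4052 and 4979.6 CPM in tumor and 0 in all spleen members (at least 330.1-fold higher), and it was found in 74 of 76 tumor members. Fpr1 (3.19), Ptafr (2.99) and Ccr1 (2.28), receptors for formyl peptides, platelet-activating factor and Ccl3, were higher as well, and Cxcr4, a retention receptor for marrow, was higher by 1.59 (adjusted p = 0.046). Itgal, an integrin chain, fell by 1.62 on the log2 scale (adjusted p = 0.047). Of these calls Ccrl2 alone held in each alternative run. Those of Fpr1, Ccr1, Ptafr, Cxcr4 and Itgal ended without the *Aire*+/+ anti-PD1 pair (log2 3.06, 1.96, 2.63, 1.99 and −1.67, adjusted p = 0.0547, 0.235, 0.1, 0.242 and 0.351). The integrin chains Itgam (−0.71) and Itgb2 (−0.57) and the hyaluronan receptor Cd44 (0.68) did not pass the test.

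Genes of mature neutrophils split in both directions. Of 15 tested, 4 were higher in tumor (Il1r2 4.02, Fpr1 3.19, Gm5483 2.77, Mxd1 1.96), 3 were lower (Wfdc21 −3.50, Ly6g −2.36, Trem3 −1.62) and 8 were not called, against 20.4% higher and 6.05% lower of all genes. Il1r2 was at 2048, 3582, 2030.5 and 3440.5 CPM in tumor and at 249.7, 324, 0 and 46.2 CPM in spleen, and it was found in 75 of 76 tumor members and 16 of 38 spleen members. Hdc, the histamine-forming enzyme, was at 1490.5, 2791, 2012 and 2218 CPM in tumor and 1116, 810.4, 671 and 892 CPM in spleen (log2 1.12, adjusted p = 0.13). Gm5483, Stfa2l1 and BC100530 are near copies of each other, so reads may be shared among them. Calls of Gm5483, Mxd1 and Trem3 ended without the *Aire*+/+ anti-PD1 pair (log2 2.72, 1.87 and −1.49, adjusted p = 0.144, 0.256 and 0.382). That of Ly6g ended without the *Aire*-/- anti-PD1 pair (−1.57, adjusted p = 0.0658).

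Survival genes were higher in tumor in 7 of 12 tested and lower in 0, with a median log2 difference of 2.88. Bcl2a1b, a member of a mouse family of anti-apoptotic genes with near-identical copies, was at 1179, 1505, 1207 and 1449 CPM in tumor and at 58.8, 0, 47.9 and 0 CPM in spleen (5.87 ± 0.80, adjusted p = 1.4e-11). Its copies Bcl2a1a and Bcl2a1d were at 0 in spleen (at least 19.7-fold and 16.6-fold higher), and the assignment of reads among the copies is uncertain. Gadd45b (4.79) and the pro-apoptotic Bcl2l11 (4.14) rose, as did Casp4 (2.79) and Casp8 (2.98). Calls of Casp4 and Casp8 ended without the *Aire*+/+ anti-PD1 pair (log2 2.72 and 2.56, adjusted p = 0.143 and 0.363). Genes for and against cell death were thus both higher. Mcl1, a survival gene, was at 843, 689.8, 933 and 498 CPM in tumor and at 705, 292, 287 and 92.3 CPM in spleen (log2 1.17, adjusted p = 0.13).

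Immediate early genes, which rise within minutes of stimulation and of enzymatic dissociation, moved with all of these groups. Of 11 tested, 7 were higher in tumor, with a median log2 difference of 3.19 (2.27 with bounds). Fos was at 5460.0, 5041, 3814 and 1947 CPM in tumor and at 1116, 1037, 192 and 431 CPM in spleen (2.23 ± 0.56, adjusted p = 6.1e-04). The whole list summed to 22844, 20946, 16134 and 15527 CPM in tumor members and 5920.1, 4344, 1437 and 1662 CPM in spleen members. Other cells of the same libraries showed the same order, at 12502, 11334, 9778 and 7719 CPM in tumor and 1155, 1013, 1189 and 1112 CPM in spleen. Atf3 (6.6), Egr1 (5.53) and Jun (4.96) differed most, and the heat shock genes Hspa1a (33 UMIs in tumor, 0 in the fitted spleens) and Hsp90aa1 (0.88) did not pass the test. Fos and Junb (2.27) lost their calls without the *Aire*+/+ anti-PD1 pair (log2 2.06 and 2.27, adjusted p = 0.169 and 0.136). The part of dissociation in the other differences was not tested.

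Glycolysis and hypoxia genes were higher in tumor in 6 of 15 tested and lower in 0, with a median log2 difference of 1.17. The called genes were the glucose transporter Slc2a1 (3.06), the entry enzymes Hk2 (2.28) and Pfkp (3.65), and Bnip3 (2.62), Hilpda (7.65) and Egln3 (at least 11.7-fold higher), which are targets of the hypoxia-induced factor. The later enzymes Aldoa (0.14), Gapdh (−0.57), Pgk1 (−0.26), Eno1 (0.37), Pkm (0.54) and Ldha (0.69) did not pass the test. Among these, Gapdh was at 1671, 1536, 1409 and 1177 CPM in tumor and 1968, 1977, 1964 and 2462 CPM in spleen. Calls of Slc2a1, Hk2, Pfkp and Bnip3 ended without the *Aire*+/+ anti-PD1 pair (log2 2.72, 1.79, 3.52 and 2.67, adjusted p = 0.0967, 0.364, 0.0798 and 0.213).

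Of 6 NADPH oxidase genes tested, 0 were higher and 2 lower in tumor, with a median log2 difference of −1.05. Without the granule-rich spleen members, Rac2 alone was called on the same libraries, and 0 of 6 with at least 5 members per library. Rac2, the GTPase that switches the oxidase on, was at 517, 635, 439 and 769.6 CPM in tumor and at 2600.1, 1621, 1389 and 1723 CPM in spleen (−1.65 ± 0.57, adjusted p = 0.017). Cybb, its membrane subunit, was at 422, 165, 366 and 158 CPM in tumor and at 749, 1524, 1821 and 1646 CPM in spleen (−2.42, adjusted p = 5.8e-04). For both genes the tumor values lay below all spleen values. Without the *Aire*+/+ anti-PD1 pair neither was called (Rac2 −1.93, adjusted p = 0.221, Cybb −2.16, adjusted p = 0.224). Without the granule-rich spleen members, on the same libraries, Cybb turned to 1.09 (adjusted p = 0.181) and Rac2 was lower by 1.22 (adjusted p = 0.0195). With at least 5 members per library in that alternative, Rac2 was not called (−1.48, adjusted p = 0.0548). Cyba (−1.16), Ncf1 (−0.72) and Ncf4 (−0.95) were not called.

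Antigen presentation and monocyte genes were higher in tumor, but their counts came from few cells. All 4 MHC class II genes tested were called, with a median log2 difference of 4.48. Cd74, the invariant chain, was at 657, 6577, 2598 and 0 CPM in tumor and at 58.8, 64.8, 0 and 61.5 CPM in spleen (3.63 ± 0.85, adjusted p = 2.6e-04). A UMI of Cd74 was found in 25 of 76 tumor members, and 1 cell held up to 75.9% of a tumor library's Cd74 UMIs. In the 28 tumor members with more than 2 UMIs over Csf1r, Ccr2 and Ly6c2 Cd74 stood at 4723 CPM, and in the other 48 at 91.3 CPM. Under the stricter lineage rule 0 MHC class II genes had enough counts to be tested. Of 6 monocyte genes tested, Ccr2, Fn1, Ms4a6c and Ctss were higher in tumor, while the *Aire*-/- isotype spleen, outside the fit, held 671 CPM Ccr2 and 1054 CPM Fn1 in its 2 cells; with that library the log2 difference of Fn1 turned to −0.17 (adjusted p = 0.955) and that of Ccr2 fell short of a call (0.89, adjusted p = 0.602). All 4 MHC class II calls, and those of Ccr2, Fn1 and Ms4a6c, ended without the *Aire*+/+ anti-PD1 pair (adjusted p = 0.628 for Cd74 and 0.0842 for Ccr2). Cd74 then had a log2 difference of 1.42, against 6.60 for Ccr2, 6.82 for Fn1 and 4.22 for Ms4a6c. Bst2, which the plasmacytoid list shares with interferon responses, was the one gene of that list found (at least 15.9-fold higher in tumor), with Siglech, Ccr9, Klk1 and Cox6a2 at 0; dendritic cell genes summed to 0, 314, 0 and 22.6 CPM in tumor, 36 of their UMIs being Cd209a in the *Aire*+/+ anti-PD1 tumor, with Zbtb46, Xcr1 and Ccr7 at 0.

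With a stricter lineage rule, at least 2 UMIs over Csf3r, Cxcr2 and Retnlg and at most 2 over Csf1r, Ccr2 and Ly6c2, 41 of the 76 tumor members and 28 of the 38 spleen members remained, and the chemokine, interferon and tumor neutrophil results stood. This left 4 members in the *Aire*-/- anti-PD1 spleen, so the rule was fitted again on the libraries of the full fit, with at least 3 members per library, an alternative chosen after the data were seen. Of 1091 genes then tested, 259 were higher and 69 lower in tumor, 224 and 30 of them shared with the full set. All 11 chemokine and cytokine genes tested, all 13 tumor neutrophil genes, 14 of 18 interferon genes and 9 of 15 glycolysis and hypoxia genes were higher. Cxcl2 had a log2 difference of 11.17, Isg15 4.76, Cd14 6.59, Cd274 4.17 and Il1b 2.77. Granule genes were lower in 6 of 11 tested, with 1 of the 8 granule-rich cells described below left in the set. The others held more than 2 UMIs of Ly6c2, and 0 of Csf1r and Ccr2. With at least 5 members per library, both *Aire*-/- spleens leave the fit, and 0 of 6 granule genes were called. This rule selects on Csf3r, Cxcr2 and Retnlg, so their values under it are no test of them.

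Secondary and tertiary granule genes were lower in tumor in 8 of 12 tested and higher in 0, with a median log2 difference of −3.47. Camp, the cathelicidin precursor, gave 0 UMIs in the 4 tumors and stood at 12957, 28363, 32148 and 46557 CPM in spleen, at least 4672-fold higher than in tumor. Ngp (neutrophilic granule protein) was at 5.02, 7.84, 0 and 0 CPM in tumor and at 16394, 34230.1, 21177 and 69959 CPM in spleen (−12.09 ± 0.95, adjusted p = 3.1e-33). Ltf, lactoferrin, was at 15.1, 15.7, 64 and 45.3 CPM against 4157, 6515, 4647 and 15109 CPM. These were among the most abundant RNAs of the spleen members and close to absent from tumor. Lcn2 (−4.82), Chil3 (−4.99), Cd177 (−4.52), Cybb and the citrullinating enzyme Padi4 (−2.03) were lower too, as were, outside the lists, Serpinb1a (−5.97), Orm1, Itgb2l, Fcnb, Adpgk, Sept5, Ccnb2, Fam101b and B230208H11Rik. Padi4, Fcnb and B230208H11Rik lost their calls without the *Aire*+/+ anti-PD1 pair (log2 −2.24, −4.18 and −3.80, adjusted p = 0.179, 0.0637 and 0.0852), and Orm1, Itgb2l, Sept5 and Ccnb2 with DESeq2. Primary granule genes were scarce in both tissues: Mpo, Elane and Ctsg gave 0 UMIs, and Ms4a3 gave 0 in tumor and 10 in spleen.

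The RNA of Camp, Ngp and Ltf was held by few cells. Over Ngp, Camp and Ltf, 95 of the 114 members held 0 UMIs, 11 held 1 to 9 with at most 3, and the other 8, all from spleen, held 494 to 3720. These granule-rich cells, a group chosen after the data were seen, numbered 2, 1, 1 and 4 in the 4 spleens and 0 of 76 in tumor. They held 55.9% of all UMIs of spleen members and 100% of those of Camp, Ngp and Ltf, which define them. Their share was 100% for Chil3, 94.7% for Lcn2, 89.2% for Ly6g, 84.0% for Cybb and 81.4% for S100a8, near that of all UMIs for Padi4 (58.1%) and Mmp8 (54.1%), and below it for Mmp9 (35.2%). It was 2.83% for Csf3r, 2.81% for Retnlg and 0% for Il1b. A granule-rich cell was also larger in RNA, with a median of 9971 UMIs and 1703.5 genes against 2314.5 UMIs and 893.5 genes in the other 30 spleen members. Of the cell cycle genes, Mki67 (8 UMIs in spleen, 6 of them in 1 cell), Stmn1 (10), Birc5 (4) and Ube2c (3) had all their spleen UMIs in these cells, while Tubb5 had 10 of 11, Pcna 1 of 3, Rrm2 0 of 1 and Top2a 0 in spleen. The spleen set thus held a pair of neutrophil kinds: a few granule-rich cells with little Csf3r (58.1 CPM) and many cells with much Csf3r (2525 CPM) and Retnlg (8054 CPM). In tumor Csf3r was at 591 CPM over all members and Retnlg at 1547 CPM. S100a8, a gene of the rule, stood at 175541 CPM in granule-rich cells, 50728 CPM in the other spleen members and 20098 CPM in tumor.

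**Figure D2:**
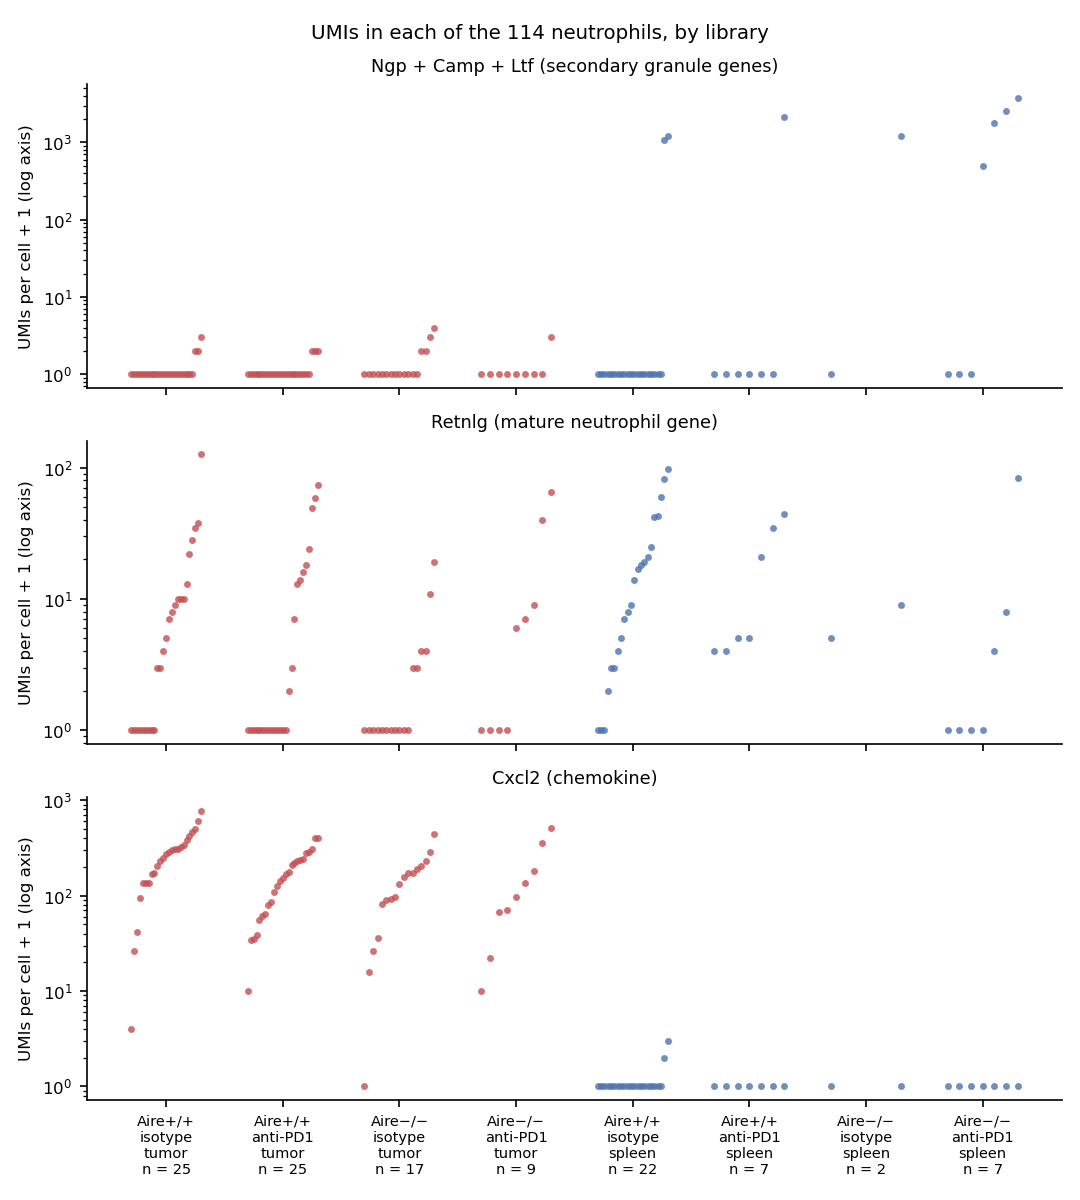
UMIs per cell (plus 1, log axis) of Ngp, Camp and Ltf together, of Retnlg and of Cxcl2 in each member of the 8 libraries, sorted within a library; tumor cells are red and spleen cells blue. The first panel shows 8 spleen cells with 494 to 3720 UMIs and no other member above 3, and the last shows Cxcl2 in 75 of 76 tumor cells.

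Without the granule-rich cells, an alternative chosen after the data were seen, the genes higher in tumor largely stayed and those lower in tumor largely changed. This leaves 20, 6, 1 and 3 spleen members. With at least 5 members per library both *Aire*-/- spleens leave the fit, and of 1960 genes tested 322 were higher and 65 lower, 252 and 24 of them shared with the full set. The values that follow are of a fit with at least 3 members, also chosen after the data were seen, which keeps the 7 libraries of the full fit. Of 1463 genes tested there, 371 were higher, 275 of them among the 324 of the full set, and 83 were lower, 28 of them among the 96. Csf3r and Retnlg were now lower in tumor. Csf3r stood at 391, 737, 649 and 928 CPM against 2671, 3385, 638 and 2806 CPM in spleen and fell by 1.58 on the log2 scale (adjusted p = 0.00152). It was even in the *Aire*-/- isotype pair, whose spleen library was outside the fit. Retnlg, at 8963, 8049, 729 and 13142 CPM in these spleen members, fell by 1.57 (adjusted p = 4.9e-04). Cxcr2 was at 1741, 978, 365 and 1181 CPM in spleen and did not pass the test (−0.46, adjusted p = 0.478). The granule enzyme Mmp9, found in each of the 30 granule-poor spleen cells, fell by 1.51 on the log2 scale (adjusted p = 0.00343), and Lcn2 fell by 1.34 (adjusted p = 0.012). With at least 5 members per library, Lcn2 was not called (−1.44, adjusted p = 0.0794), and Mmp8 and Mmp9 were lower. Chil3 turned from −4.99 to 6.39 (adjusted p = 0.00158), with 0 UMIs then in spleen and 136 in tumor, where all 10 cells that held it had more than 2 UMIs of monocyte genes. Ly6g (0.18), Wfdc21 (−1.03) and Cybb (1.09) were no longer called. Glycolysis and hypoxia genes were higher in 11 of 15 tested, with Ero1l (4.52), Hk2 (3.31), Pgam1 (3.63) and Ldha (2.15) among them. Il1b remained higher by 2.56 (adjusted p = 1.3e-08) and Cxcl2 by 10.66.

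Some genes were lower in tumor both with and without the granule-rich cells; those named here were chosen after their values were seen. Anxa1, an anti-inflammatory phospholipid-binding protein, was at 326, 337, 348 and 385 CPM in tumor and at 2321, 3955, 2396 and 4077 CPM in spleen, a log2 difference of −3.27 with and −1.05 without them, the latter not called on the same libraries (adjusted p = 0.0743). Pglyrp1, which binds bacterial peptidoglycan, was at 346, 604, 183 and 769.6 CPM against 2938, 2561, 2635 and 3708 CPM (−2.51 and −1.45). For both genes every tumor library lay below every spleen library. The transcription factor Cebpd, with 110.4, 165, 146 and 113 CPM in tumor and 1102, 778, 383 and 415 CPM in spleen, had −2.53 and −2.58. Il16 (−3.87 and −3.75), Itgal (−1.62 and −2.32) and the inhibitory lectin Siglece (−1.61 and −1.93) were also lower both ways. Calls of Il16, Cebpd, Itgal and Siglece on all members ended without the *Aire*+/+ anti-PD1 pair (log2 −3.33, −2.83, −1.67 and −1.99, adjusted p = 0.112, 0.0591, 0.351 and 0.223).

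Tumor neutrophils differed among themselves. Retnlg was at 0 UMIs in 38 of the 76 tumor members, at 1 to 4 in 10 and at 5 or more in 28, with median depths of 4486, 4075.5 and 4812.5 UMIs per cell. Cells without Retnlg held more of the chemokines Ccl4 and Ccl3: Ccl4 was found in 35 of 38 of them at 11901 CPM and in 14 of the 28 Retnlg-rich cells at 3025 CPM. Ccl3 was found in 32 of 38 at 6353 CPM and in 16 of 28 at 1299 CPM. Tnf (892 against 124 CPM) and Spp1 (983 against 84.3 CPM) lay in the same direction, and S100a8 (13096 against 27433 CPM) and Wfdc21 (90.9 against 605 CPM) in the other. Some genes were near even between these groups. Il1b was at 19138 and 15539 CPM, Il1r2 at 2459.9 and 2361 CPM, Csf3r at 533 and 629.9 CPM, and Cxcl2 was found in each cell of both groups. These groups were read from the data, so their values are description and were not tested. Some tumor RNAs were uneven from cell to cell: Hilpda was found in 28 of 76 tumor members with up to 74 UMIs, Cxcl3 in 37 of 76 with up to 184, and Cxcl10 in 41 of 76 with up to 211.

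Across conditions, tumor neutrophils of *Aire*-/- mice had higher values of many interferon-response genes than those of *Aire*+/+ mice under both antibodies. Of the 18 interferon genes with at least 50 UMIs in 1 tumor library, 10 had both *Aire*-/- libraries above both *Aire*+/+ libraries and 0 the reverse. The same orders held for 14.2% and 16.7% of all 600 genes with that many UMIs. Gbp5 was at 75.3 (95% counting interval 42.1 to 124), 180.3 (114 to 271), 512 (387 to 665) and 928 (666 to 1259) CPM. Gbp2 was at 607 (504 to 726), 1050.4 (880.1 to 1244), 2039.6 (1781 to 2326) and 2037 (1638 to 2504) CPM, and Ifi47 at 346 (269 to 438), 729 (588 to 893), 1701 (1465 to 1964) and 1064 (782 to 1415) CPM. For Gbp5 and Gbp2, but not Ifi47, the intervals of the genotypes did not overlap. These genes were picked from the list, and the 18 interferon genes and all 600 genes were not counted for overlap. The intervals treat UMIs as independent and take no account of how they spread over cells, so their separation is description. In Gbp5, Gbp2 and Ifi47 *Aire*+/+ isotype was lowest. Cxcl10 was at 3382 (3132 to 3648), 5699 (5292 to 6129), 8085 (7561 to 8636) and 8669 (7823 to 9582) CPM. Ifit3, Irf7, Isg15, Oasl2 and Slfn4 had the same order, and Rsad2 did not, being low in *Aire*+/+ isotype alone (2344, against 5746, 5396 and 5274 CPM). Other cells of the same tumors had the order for 4 of these 10 genes, among them Gbp5, Gbp2 and Ifi47, with Gbp2 at 329, 319, 663 and 493 CPM. Under the stricter lineage rule 5 of the 10 had it. With 1 library per condition no difference between conditions was tested, and 1 cell held up to 68.3% of a library's Gbp5 UMIs.

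Some genes of low oxygen and of immediate early response had the opposite order. Both *Aire*+/+ tumors lay above both *Aire*-/- tumors for 6 of 12 glycolysis and hypoxia genes (Hilpda, Ero1l, Eno1, Ldha, Pgam1 and Gapdh) and for 6 of 9 immediate early and heat shock genes, and 0 genes of either list had the reverse order. Under the stricter lineage rule, 3 of the 6 of each list kept it, and other cells of the same tumors had it for 3 of the 6 glycolysis and hypoxia genes. Hilpda was at 2133 (1935 to 2346), 1356 (1162 to 1574), 293 (200.2 to 413) and 1064 (782 to 1415) CPM, and Eno1 at 1024 (888 to 1174), 1121 (945 to 1321), 476 (355 to 624) and 453 (277 to 699) CPM. The share of cells with Hilpda was 13 of 25, 9 of 25, 4 of 17 and 2 of 9, and 1 cell held up to 70.2% of a library's Hilpda UMIs. Hilpda lost the order under the lineage rule (4699, 1013, 229 and 1297 CPM). Ldha, at 1054, 799.6, 512 and 656 CPM, had up to 82.8% of its UMIs in a library from 1 cell. For 5 of the 6 immediate early genes the order was also that of the other cells: Fos there was at 4611, 3868, 2771 and 1438 CPM, against 5460.0, 5041, 3814 and 1947 CPM in the members. Tumor neutrophil genes had the same order in 7 of 13 and the reverse in 1, Tgm2 (542, 627, 951 and 1698 CPM), and other cells had the order for 6 of these 7.

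Of 11 chemokine and cytokine genes, 3 had both *Aire*+/+ tumors above both *Aire*-/- tumors, 3 the reverse and the rest were mixed. Ccl4, at 9369 (8949 to 9804), 14894 (14232 to 15579), 4793 (4391 to 5221) and 3349.9 (2832 to 3935) CPM, was higher in value in both *Aire*+/+ tumors, as were Ccl3 at 4527, 7322, 1893 and 2852 CPM and Osm at 2379, 1819, 1289.6 and 1539 CPM. Tnf, Cxcl10 and Il1b had the reverse order, the last by a narrow margin. Under the stricter lineage rule the order stayed for Ccl4, Ccl3 and Osm and was lost for Tnf, Cxcl10 and Il1b. Cxcl2 was lowest in value in *Aire*-/- isotype over all members (22024 CPM) but not under the lineage rule (58989, 30424, 36130 and 34192 CPM), and Cxcl3 was at 3859, 1827, 402 and 3871 CPM, with up to 98.2% of a library's UMIs in 1 cell.

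By antibody, genes of mature neutrophils were higher in value in both anti-PD1 tumors than in both isotype tumors in 7 of 12 cases, and 0 had the reverse order. The same orders held for 12.8% and 34% of all 600 genes. Csf3r was at 391 (309 to 489), 737 (595 to 902), 649 (507 to 819) and 928 (666 to 1259) CPM, and Il1r2 at 2048 (1854 to 2256), 3582 (3261 to 3926), 2030.5 (1772 to 2316) and 3440.5 (2915 to 4033) CPM. Retnlg was lowest in *Aire*-/- isotype, at 348 (246 to 477) CPM against 1581 (1411 to 1765), 2101 (1857 to 2368) and 2761 (2293 to 3297) CPM. For Retnlg, 1 cell held up to 52.5% of a library's UMIs. Cxcr2, Hdc and Wfdc21 had the anti-PD1 order too. Under the stricter lineage rule Hdc and Wfdc21 lost the order and Il1r2 kept it; Csf3r, Cxcr2 and Retnlg are part of that rule. Cd274, for the ligand of the blocked receptor, was at 386 (305 to 483), 1003 (837 to 1193), 960.4 (785 to 1163) and 1381 (1056 to 1774) CPM; it was lowest in *Aire*+/+ isotype, and the intervals of *Aire*+/+ anti-PD1 and *Aire*-/- isotype overlapped. Receptors for microbial products and antibodies had the anti-PD1 order in 6 of 12 and the isotype order in 2; of the 6, Clec4n alone kept it under the lineage rule. The number of members with more than 2 UMIs over Csf1r, Ccr2 and Ly6c2 was 13 of 25, 7 of 25, 7 of 17 and 1 of 9, some of them on Ly6c2 alone. They held 138061 of 199267, 53264 of 127566, 65935 of 109335 and 4015 of 44180 member UMIs. That part was larger in both isotype tumors than in both anti-PD1 tumors. Levels are sums over members, and the part of this mix in the orders by antibody and genotype was not tested. The lineage rule leaves these cells out along with those poor in Csf3r, Cxcr2 and Retnlg.

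**Figure D3:**
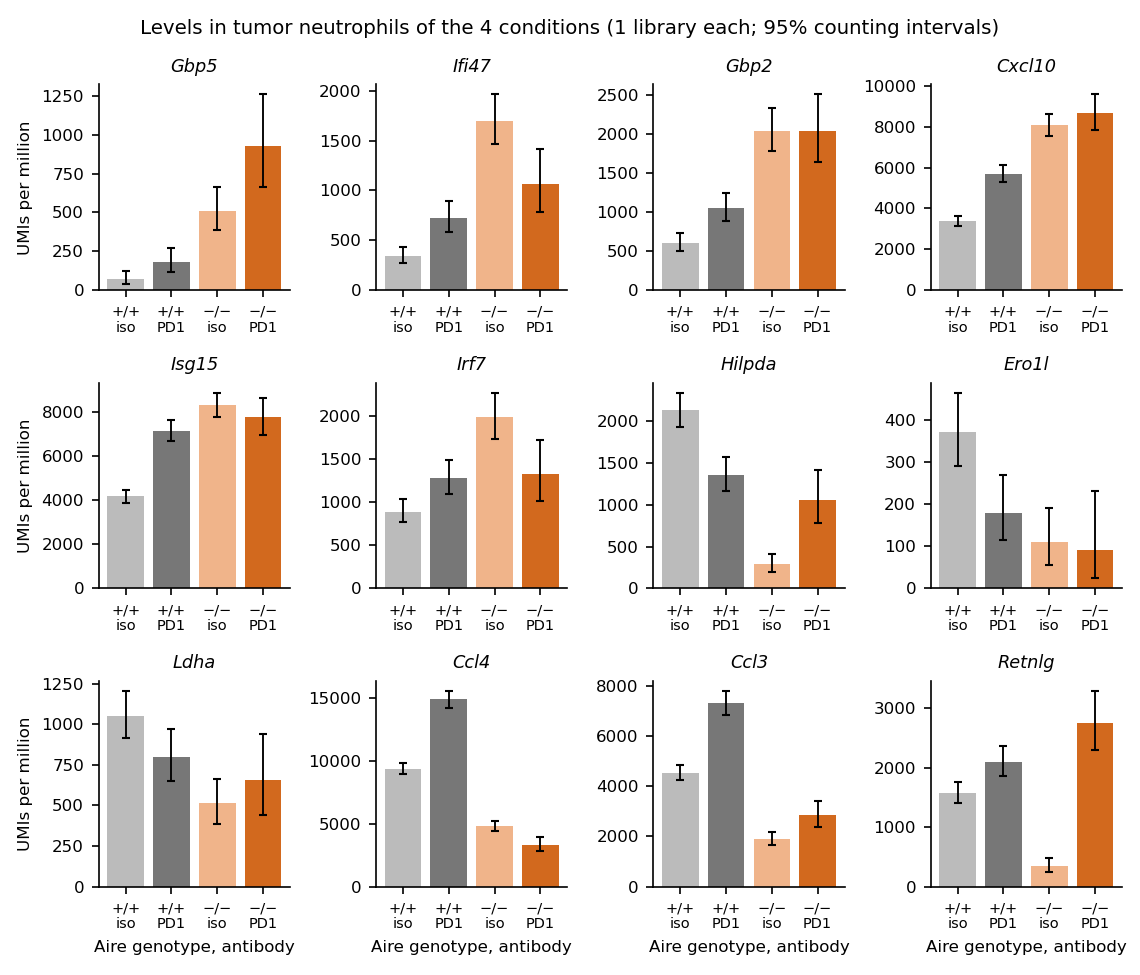
CPM of 12 genes in the 4 tumor libraries, with 95% counting intervals, for 25, 25, 17 and 9 members. The interferon genes Gbp5, Gbp2 and Cxcl10 are highest in the *Aire*-/- bars, and Hilpda, Ccl4 and Ccl3 are highest in the *Aire*+/+ bars.

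In the 3 larger spleen libraries, Ngp was higher where the share of granule-rich cells was higher. This is no test, since Ngp helps to define these cells. Granule-rich cells made up 2 of 22, 1 of 7, 1 of 2 and 4 of 7 members, and Ngp stood at 16394 (15446 to 17385), 34230.1 (32196 to 36359), 21177 (19248 to 23246) and 69959 (67940.4 to 72023) CPM. Retnlg ran the other way across the larger libraries, at 6772 (6168 to 7419), 3598 (2959.9 to 4333) and 1415 (1141 to 1736) CPM in *Aire*+/+ isotype, *Aire*+/+ anti-PD1 and *Aire*-/- anti-PD1, on 461, 111 and 92 UMIs. Once the granule-rich cells were left out, these became 8963, 8049 and 13142 CPM, and 1 cell held 89.1% of the Retnlg UMIs of the *Aire*-/- anti-PD1 spleen. The 2 members of the *Aire*-/- isotype spleen were a granule-rich cell with 1210 UMIs of Ngp, Camp and Ltf and a cell with 32 UMIs over Csf1r, Ccr2 and Ly6c2. That other cell also held 7 UMIs of Csf3r, 4 of Cxcr2 and 8 of Retnlg, and whether it is a monocyte was not tested. With 2 to 22 members per spleen, differences between conditions were not tested.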

How the data were processed

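UMI counts per gene and barcode were used as deposited by the authors, who aligned reads to GRCm38; 27 vector entries were left out, and entries of one symbol were summed. Cells needed at least 200 genes and at most 20% mitochondrial UMIs. Member UMIs were summed per library, and libraries with at least 5 members were fitted in edgeR 4.0.16 (filterByExpr, TMM, quasi-likelihood test, tissue plus condition as a block, Benjamini-Hochberg adjustment at 0.05) without the 9 genes of the rule. Genes are named when called, at 50 CPM or more in the higher tissue and 2 times the level of other cells, up to 15 per direction, or when in a list. Some list genes are not reported here. Members and lists were chosen with earlier results of these data known. Alternatives used DESeq2 1.42.0, other filters, size factors and rules, and leave-one-out runs; refits with at least 3 members per library were added after the data were seen. Intervals are exact (Clopper-Pearson, or Poisson for counts). Software: R 4.3.3, limma 3.58.1, Python 3.11.15, numpy 2.4.6, scipy 1.17.1, pandas 2.3.3 and matplotlib 3.10.9.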

Additional observations from a re-analysis of the deposited data

How the results depend on the processing

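Over 123 named genes and 16 alternatives, 1613 of 1842 values kept direction and side of the threshold, 179 lost the call, 32 gained one and 18 turned direction. By gene, 60 of the 115 named genes called kept the call in every alternative that tested them. The other 55 lost it or turned direction in 1 or more, 42 of them without the *Aire*+/+ anti-PD1 pair. The DESeq2 Wald test called 257 genes (210 higher and 47 lower in tumor), 50 UMIs of each S100a gene 150 (125 and 25), with the *Aire*+/+ anti-PD1 spleen then below 5 members, and members thinned to 1000 UMIs 197 (148 and 49). Without the filter on low counts 35 genes were lower, and with the lineage rule 56. Leaving out 1 condition at a time gave 154 to 458 calls, 129 to 352 higher and 25 to 112 lower. Without the condition block 269 were higher and 120 lower. Of the rules that took a library below 5 members, with at least 3 members the 50-UMI rule called 346 (263 and 83), the lineage rule 328 (259 and 69), that without members of high UMI number 414 (329 and 85) and that without granule-rich members 454 (371 and 83); this limit was chosen after the data were seen. A limit of 10 members per library could not be fitted, as no residual degrees of freedom remained. Shares also depended on the rule: at 50 UMIs the *Aire*+/+ anti-PD1 tumor had 0.589%, the *Aire*-/- isotype tumor 0.377% and all 4 tumors 0.54%. With the lineage rule the *Aire*+/+ isotype tumor had 0.375%, the *Aire*+/+ anti-PD1 tumor 0.634%, the *Aire*-/- isotype tumor 0.485%, all 4 tumors 0.452% and the *Aire*-/- isotype spleen 0%. Reversed genes were few, and the cause was not tested. Without the granule-rich members these were Chil3 (6.81), Cybb (0.92), Ly6g (0.0696), Ifitm6 (0.78) and Cxcr2 (−0.70). With the lineage rule they were Cybb (0.0297), Ifitm6 (1.45) and Cxcr2 (−0.35), of which Cybb (−1.17) and Ifitm6 (−0.30) did not turn with at least 3 members, and without members of high UMI number Ly6g (0.42), Ifitm6 (1.0) and Cxcr2 (−0.34). Fn1 turned to −0.17 with libraries of at least 1 member. Cxcr2 was −0.22 without the block, −0.0175 at 50 UMIs, −0.0492 in thinned members and −0.47 to 1.15 in leave-one-out runs. Those runs gave −1.56 to 0.0279 for Csf3r and −0.19 to 2.17 for Ero1l. The median log2 difference of all genes, 0.16, became −0.02 with the lineage rule, 0.36 with libraries of at least 1 member and 0.34 without the filter on low counts.

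With 114 members, 1 library per condition and tissue and 2 residual degrees of freedom, small differences cannot be seen, and antibody and genotype were not tested. Tumor and spleen also differ in preparation and in cell depth, and the spleen set mixes granule-rich and other cells. Some tumor members hold RNA of Csf1r, Ccr2 or Ly6c2, and whether they are monocytes was not tested. Granule-rich spleen members held Ly6c2 as well. RNA of other cells in the suspension was not removed. No doublet caller was run; leaving out members with over 2 times the median UMIs of their library gave 312 genes higher and 97 lower, 249 and 31 of them shared with the full set. Members were defined by S100a8 and S100a9, so neutrophils with little of either are missed.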
